A study of Mus musculus with 25 samples.

Results

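The pyruvate dehydrogenase complex and the enzymes that switch it off and on were described in gastrocnemius muscle of aging mice through 10 genes. Members were chosen by name, with earlier results of these data known, and by presence in the deposited expression table. Presence required the read counts of the authors' filter, 30 reads in at least 6 samples. All 10 of the 10 named genes were among the 8829 genes of the table. They comprised 5 subunits (Pdha1, Pdhb, Dlat, Dld and Pdhx), 3 kinases (Pdk1, Pdk2 and Pdk4) and 2 phosphatase genes (Pdp1 and Pdpr). All animals were male SAMP8 mice, a senescence-accelerated inbred strain, dosed orally from 8 months of age. Corn oil alone was given to 11 control mice and carried thymol, a phenol of thyme oil, at 20 mg per kg per day for 14 thymol-treated mice, on 5 days a week for 12 weeks, which the sample labels give as 3 months. These numbers are of mice with a library, and the study left out mice that died before its end. One 3′ tag library was made from each muscle, and the table genes took 4463818 to 9463418 reads per mouse (median 7503259). Control 18, Thymol 20 and Control 19 each lay farthest from the other mice on 1 of the leading principal components of all genes. All 6 muscle identity genes (Acta1, Ckm, Mb, Des, Ryr1 and Pygm) were measured, with a summed level of 53409 to 69261 CPM (reads scaled to the library's total) over the 25 mice. The libraries held RNA of whole muscle, in which fewer cells of a type and less RNA per cell cannot be told apart.

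The complex sits in the mitochondrial matrix and converts pyruvate into acetyl-CoA, the committed step by which carbohydrate carbon enters the citric acid cycle. Pyruvate dehydrogenase kinases phosphorylate the E1 alpha subunit and switch the complex off, and dedicated phosphatases remove the phosphate and switch it on again. In skeletal muscle Pdk4 transcription is well known to rise with fasting and fatty acid supply, Pdk2 is a constitutive isoform, and Pdk1 is a target of the hypoxia-inducible factor. The enzyme activity and its phosphorylation were not measured, and all values are of transcripts.

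The sequences just upstream of 4 transcription starts are shown because they belong to the steadiest subunit and the one whose level followed it most closely (Pdha1 and Dlat), and to the 2 members that varied most between mice (Pdk1 and Pdk4). Each is the 250 bases before the start that RefSeq gives on GRCm38.p6, read 5′ to 3′ on the gene's strand, and capitals mark a match, on either strand, to one of the motifs searched. The Pdha1 window is chrX:160138431-160138680 (minus strand), the Dlat window chr9:50659781-50660030 (minus strand), the Pdk1 window chr2:71872974-71873223 (plus strand) and the Pdk4 window chr6:5496279-5496528 (minus strand).
Pdha1: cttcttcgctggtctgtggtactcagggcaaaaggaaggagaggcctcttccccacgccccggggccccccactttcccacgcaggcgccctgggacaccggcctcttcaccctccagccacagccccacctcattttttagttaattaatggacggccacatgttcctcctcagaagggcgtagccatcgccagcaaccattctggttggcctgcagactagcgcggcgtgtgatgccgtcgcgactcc
Dlat: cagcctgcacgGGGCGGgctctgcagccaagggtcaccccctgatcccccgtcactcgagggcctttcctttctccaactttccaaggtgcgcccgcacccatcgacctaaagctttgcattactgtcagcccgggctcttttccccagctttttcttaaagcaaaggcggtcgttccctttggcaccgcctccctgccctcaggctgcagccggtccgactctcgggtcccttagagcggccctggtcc
Pdk1: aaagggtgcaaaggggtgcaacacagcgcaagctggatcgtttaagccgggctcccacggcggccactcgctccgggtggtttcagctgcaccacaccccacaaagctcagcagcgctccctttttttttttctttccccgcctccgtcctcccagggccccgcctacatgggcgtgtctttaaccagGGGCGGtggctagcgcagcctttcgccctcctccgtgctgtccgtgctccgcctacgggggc
Pdk4: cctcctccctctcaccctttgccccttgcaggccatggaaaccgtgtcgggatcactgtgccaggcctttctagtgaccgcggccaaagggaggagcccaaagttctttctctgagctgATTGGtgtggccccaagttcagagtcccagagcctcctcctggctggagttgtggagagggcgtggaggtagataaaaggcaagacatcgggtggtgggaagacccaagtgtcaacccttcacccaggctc
Dlat and Pdk1 each held 1 GC box (GGGCGG), Pdk4 held 1 CCAAT box read on the opposite strand, and the Pdha1 window held none of the motifs. Over the 9 members with a sequence, the GC box was found in 5 and the CCAAT box in 4, against 32.7% and 33.8% of all 32851 promoter windows of the same length. An E-box (CACGTG) was found in 2 members, Pdk2 and Pdpr, against 6.02% of all windows, and the hypoxia element core (ACGTG), which lies inside that E-box, in 3 members against 16.6%. No member window held TATAAA, the nuclear receptor half-site AGGTCA, the FoxO site TGTTTAC, the glucocorticoid half-site TGTTCT or the NRF1 core TGCGCA, which were in 12.4%, 14%, 3.17%, 16.1% and 6.43% of all windows. A match describes letters in this window only. G and C made up 43.6% of the Dld window and 58.8% (Pdk4) to 78.4% (Pdpr) of the other member windows, against a median of 52.4% over all windows. The part of this base composition in the motif shares was not tested.

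The genes lie on 9 chromosomes, with Pdhx and Pdk1 both on chromosome 2. Pdha1 spans 160122209 to 160138413 on chromosome X, Dlat 50634633 to 50659780 on chromosome 9, Pdk1 71873224 to 71903858 on chromosome 2 and Pdk4 5483351 to 5496309 on chromosome 6 (GRCm38, GENCODE M21). The GENCODE start can differ from that of RefSeq. The last 31 bases of the Pdk4 window, 33 of the Pdhb window and 115 of the Pdpr window lie inside the GENCODE span of the gene. Pdha1 overlaps Map3k15, Pdk2 overlaps Gm11513 and Pdpr overlaps 9430091E24Rik, each on the opposite strand, and whether the authors' counting used strand is not given in the sources used here. In the last 500 bases of the members' transcripts, no 31-base word of Pdk1, Pdk2, Pdk4, Pdp1 or Dlat occurred in a transcript of another gene, the other kinases included. The shared words were under 1% for Pdha1, Pdhx and Pdpr, 6.55% for Dld and 18.94% for Pdhb.

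Levels were compared as log2 CPM, the deposited unit. A 3′ tag library takes reads from the transcript's end, so these values were not divided by transcript length. The kinase Pdk2 stood highest, at a mean of 8.19 log2 CPM over the 25 mice, followed by Pdha1, the E1 alpha subunit that the kinases phosphorylate, at 8.07. These neighbours differed by less than the sum of their within-group SDs (0.13 and 0.11). Such SDs are spreads between mice, and the order of genes within a mouse was not tested here or below. Pdhb, the E1 beta subunit, followed at 7.10. Pdk4 (6.43), the E2 transacetylase gene Dlat (6.32) and the E3 gene Dld (6.29) overlapped one another. Pdhx, which tethers E3 to the core, had a mean of 5.88, and the phosphatase genes Pdpr, a regulatory subunit, and Pdp1, a catalytic subunit, lay at 5.68 and 5.67 with overlapping spreads. Pdk1 was lowest, at 4.15 log2 CPM.

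**Figure D1:**
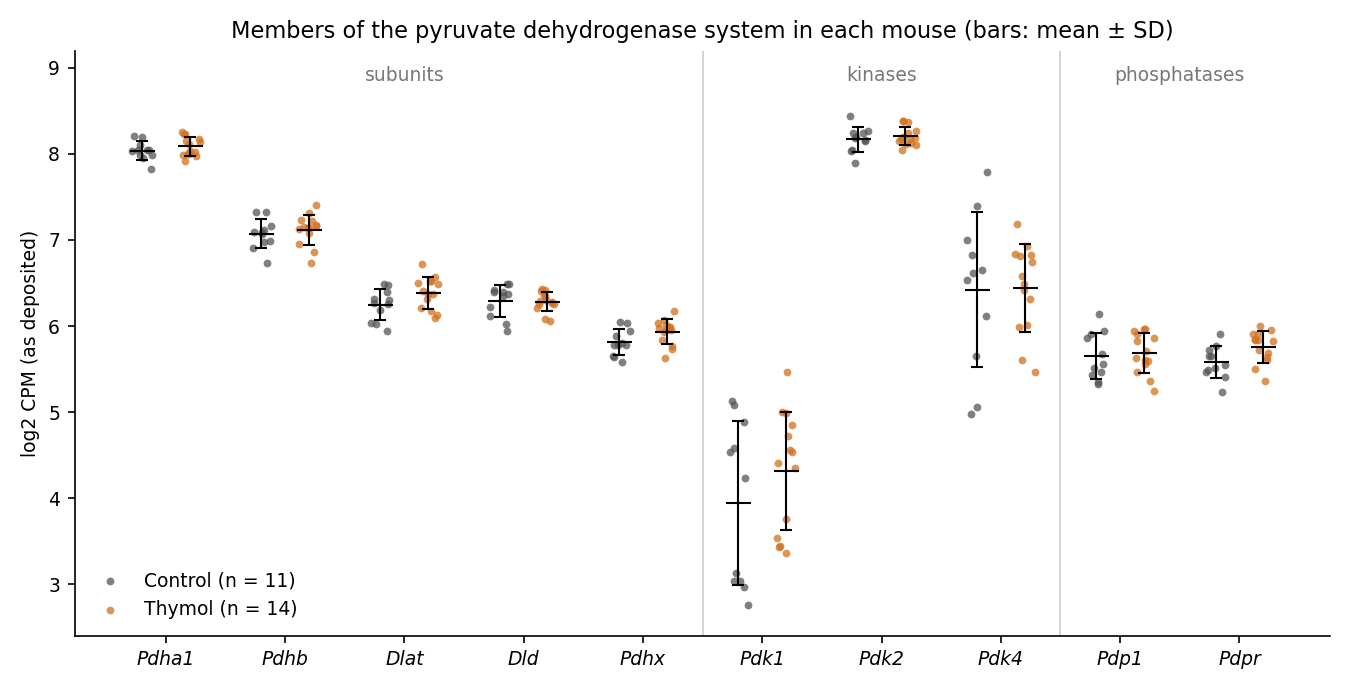
Deposited log2 CPM (vertical axis) of each of the 10 members in the 11 control (gray) and 14 thymol-treated (orange) mice, 1 point per mouse, with the mean and SD of each group as bars. Pdk1 (2.76 to 5.47) and Pdk4 (4.98 to 7.79) spread most, and the groups overlap for every member.

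None of the 10 members differed between thymol-treated and control muscle at an adjusted p under 0.05 in limma with Benjamini-Hochberg adjustment over the 8829 genes, where 0% of all genes passed (0 of 8829, smallest adjusted p 0.741). At an unadjusted p under 0.05, 1 member passed (Pdpr), against 3.53% of all genes (312 of 8829). The log2 fold change was above 0 for 9 members and below 0 for 1 (Dld), with a median of 0.05 over the members and of -0.00139 over all genes. Voom on the recovered reads likewise called 0 genes. The table genes had a median standard error of 0.11 log2 units, and the intervals below give the sizes that these 25 mice leave possible.

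**Figure D2:**
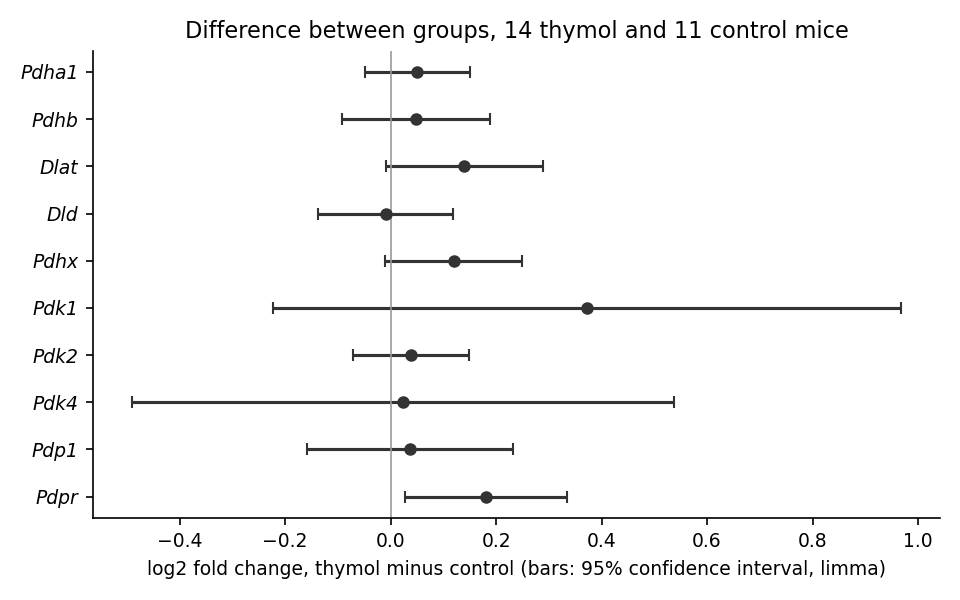
Log2 fold change of each member, thymol minus control (horizontal axis), as the limma estimate (point) with its 95% confidence interval (bar). Every interval but that of Pdpr, 0.03 to 0.33, includes 0, and those of Pdk1 and Pdk4 are the widest.

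Among the subunits, Pdha1 ran from 7.83 (Control 19) through a median of 8.04 to 8.20 log2 CPM in control mice and from 7.92 through 8.08 to 8.26 in thymol-treated mice. The groups overlapped almost entirely, with 7 of 14 thymol-treated mice above the control median. Its log2 fold change was 0.05 ± 0.05 (SE), with a 95% confidence interval of -0.05 to 0.15 (limma, adjusted p = 0.9999).

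Dlat, which carries the lipoyl arms that pass the acetyl group on, ran from 5.94 through 6.27 to 6.49 log2 CPM in control mice and from 6.09 through 6.39 to 6.72 in thymol-treated mice. The lowest mouse was Control 19, the highest was Thymol 24, and 10 of 14 thymol-treated mice lay above the control median. The log2 fold change was 0.14 ± 0.07 (SE; interval -0.01 to 0.29; unadjusted p = 0.0649, limma adjusted p = 0.9999). Without Control 18, Thymol 20 and Control 19, the estimate was 0.08 (unadjusted p = 0.274).

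Pdhx ran from 5.58 through 5.78 to 6.05 log2 CPM in control mice and from 5.62 through 5.97 to 6.17 in thymol-treated mice. The groups overlapped, with 11 of 14 thymol-treated mice above the control median. Its log2 fold change was 0.12 ± 0.06 (SE; interval -0.01 to 0.25; unadjusted p = 0.0712), and without the same 3 libraries the estimate was 0.06 (unadjusted p = 0.38). The remaining subunits were closer to 0, with 0.05 (interval -0.09 to 0.19) for Pdhb and -0.01 (interval -0.14 to 0.12) for Dld, the E3 subunit that the complex shares with other 2-oxoacid dehydrogenases. Without those libraries they were 0.03 and -0.05.

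The kinases gave no difference beyond the spread between mice. For Pdk2, control mice ran from 7.90 (Control 18) through 8.18 to 8.44 log2 CPM and thymol-treated mice from 8.04 through 8.18 to 8.39. The group medians coincided to 2 decimals. The log2 fold change was 0.04 ± 0.05 (SE; interval -0.07 to 0.15), and 0.02 without the 3 libraries.

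Pdk4 ran from 4.98 (Control 32) through 6.61 to 7.79 log2 CPM (Control 19) in control mice and from 5.46 (Thymol 6) through 6.54 to 7.18 (Thymol 22) in thymol-treated mice. The control mice held both the 2 lowest and the 2 highest values, and the thymol-treated mice lay between them. Its log2 fold change was 0.02 ± 0.25 (SE; interval -0.49 to 0.54), and the estimate was -0.12 without Control 32, 0.16 without Control 19 and 0.19 without the 3 libraries (unadjusted p = 0.47). The SD between mice was 0.90 in control and 0.51 in thymol-treated mice, and a difference in spread was not tested.

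Pdk1 ran from 2.76 (Control 32) through 4.23 to 5.13 log2 CPM in control mice and from 3.36 (Thymol 11) through 4.47 to 5.47 (Thymol 22) in thymol-treated mice. Low and high mice occurred in each group. The log2 fold change was 0.37 ± 0.29 (SE; interval -0.22 to 0.97; unadjusted p = 0.212), the largest estimate among the members and the one with the largest error, and it was -0.31 when the first number of the sample label was added as a block.

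Of the phosphatase genes, Pdpr ran from 5.23 (Control 18) through 5.54 to 5.90 log2 CPM in control mice and from 5.36 (Thymol 26) through 5.83 to 5.996 in thymol-treated mice. Although the ranges overlapped, 12 of 14 thymol-treated mice lay above the control median. The log2 fold change was 0.18 ± 0.07 (SE; interval 0.03 to 0.33), with an unadjusted p of 0.0219 that gave an adjusted p of 0.9999 (limma, Benjamini-Hochberg). The unadjusted p was 0.0527 without Control 18, the lowest mouse and one of those that stand apart, and 0.0952 without all 3 of them. Pdp1 had a log2 fold change of 0.04 ± 0.10 (SE; interval -0.16 to 0.23), and 0.10 without those libraries.

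The members differed far more in how much they varied between mice. The within-group SD of Pdha1 was 0.11 log2 units, at the 1.12 percentile of all genes and the 7.69 percentile of the 273 genes within 0.5 log2 units of its level. Pdk2 followed at 0.13, Dld and Pdhx at 0.15, Pdhb at 0.17, Dlat and Pdpr at 0.18 and Pdp1 at 0.25. Pdk4 had an SD of 0.71 and Pdk1 of 0.82, at the 98.6 and 99.2 percentiles of the genes at their own level. Counting error alone gives an SD of 0.06 for Pdk4, at 226 to 1701 reads per mouse, and of 0.14 for Pdk1, at 47 to 316 reads. Noise from library preparation was not measured.

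**Figure D3:**
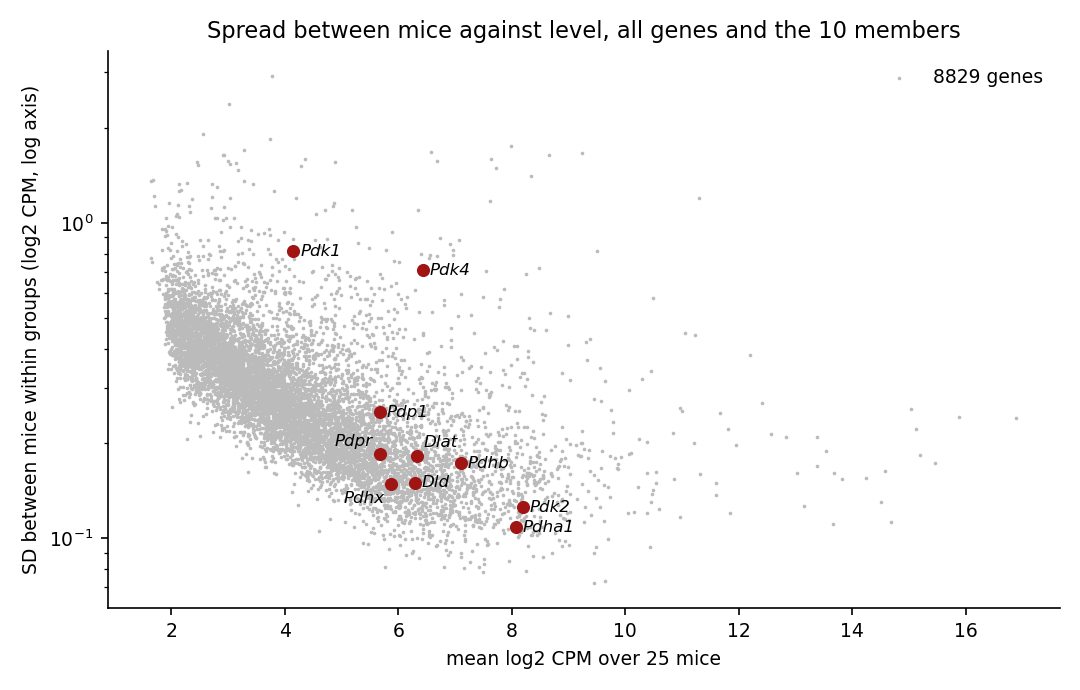
SD between mice within groups (vertical axis, log scale) against mean log2 CPM (horizontal axis) for the 8829 genes (gray) and the 10 members (red). Pdk1 (0.82) and Pdk4 (0.71) stand above nearly all genes of their level and Pdha1 (0.11) lies at the lower edge.

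From the lowest to the highest mouse, Pdk4 covered 7.04-fold, from 31.5 to 222 CPM, and Pdk1 covered 6.56-fold, from 6.76 to 44.3 CPM. Over the same mice Pdha1 covered 1.35-fold and Pdk2 1.46-fold. The widest gap between neighbouring mice for any member (0.47) was that of Pdk1, between 10 mice at or below 3.76 and 15 mice at or above 4.23 log2 CPM. The lower set held 5 control and 5 thymol-treated mice, and the upper set 6 control and 9 thymol-treated mice. Whether these sets are separate levels was not tested. The widest gap of Pdk4 was 0.41, below which only Control 32 and Control 1 lay.

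The kinase transcripts were therefore made up differently from mouse to mouse. Of the summed CPM of the 3 measured kinases, Pdk2 took 55.4% to 88.4% (median 71.1%), Pdk4 took 9.48% to 43.0% (mean 22.6%) and Pdk1 took 1.59% to 9.16% (median 5.50%). Control 19 had the highest Pdk4 share and Control 1 the lowest, and all thymol-treated mice lay within the range of the control mice for Pdk4. The sum itself ran from 320 to 515 CPM, and its ratio to the summed CPM of the 5 subunits from 0.514 (Control 31) to 0.963 (Control 19). Control mice had a mean ratio of 0.67 ± 0.13 (SD, n = 11), and thymol-treated mice one of 0.65 ± 0.05 (SD, n = 14).

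**Figure D4:**
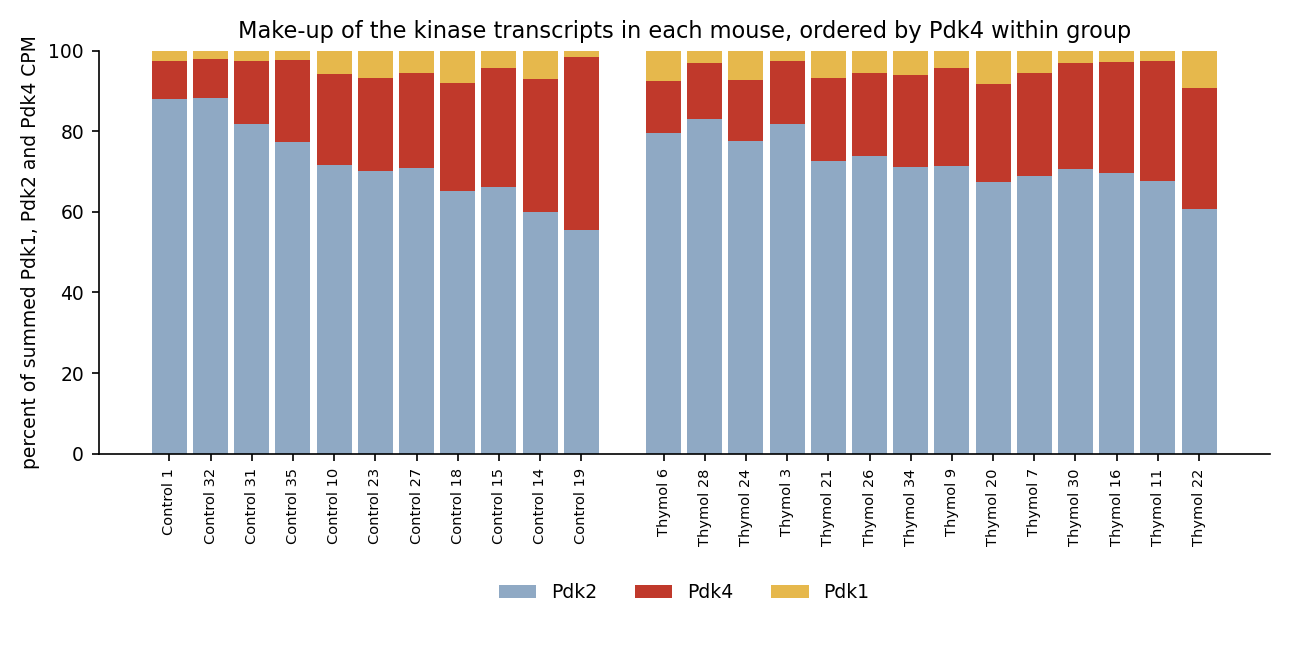
Share of Pdk2, Pdk4 and Pdk1 in their summed CPM (vertical axis, percent) in each of the 25 mice, ordered by the Pdk4 share within control (left) and thymol-treated (right) mice. The Pdk4 share runs from 9.48% to 43.0% in control and lies within that range, from 12.8% upward, in thymol-treated mice.

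Co-variation between mice was measured after the group means were removed, so that a difference between groups could not make a correlation. Over the 10 pairs of subunits, Pearson r was positive in 10, from 0.166 to 0.666 with a median of 0.379. Over all 45 pairs of members it was positive in 32 with a median of 0.221, against 49.81% positive and a median of -0.001 over all gene pairs of the table, 90% of which lay between -0.369 and 0.373. The kinases gave r of 0.40 for Pdk1 with Pdk4, 0.12 for Pdk1 with Pdk2 and 0.04 for Pdk2 with Pdk4. These pairs share mice and libraries and are given as a description.

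Pdha1 and Dlat formed the closest pair. Pearson r was 0.67 (permutation p = 0.00048) and Spearman rho 0.68 (permutation p = 0.00044) over 25 mice, with r of 0.58 in control and 0.73 in thymol-treated mice. Without Thymol 24 and Control 19, the mice farthest from the median of Pdha1, r was 0.54. Against all 8828 other genes the adjusted p was 0.0603 with Pdha1 and 0.188 with Dlat as the covariate (limma, Benjamini-Hochberg).

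Dld and Pdhx, which binds it to the core, had r of 0.65 (permutation p = 0.00077; rho 0.55, permutation p = 0.00574), and 0.53 without Control 19 and Control 32. Dlat and Pdpr had r of 0.63 (permutation p = 0.00106; rho 0.61, permutation p = 0.00185), and 0.59 without Thymol 24 and Control 19. In neither pair did the limma adjusted p fall under 0.05, at 0.136 and 0.234 for the former and 0.156 and 0.179 for the latter.

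Pdk4 and Pdp1, a kinase and a phosphatase that act on the same sites, had r of 0.52 (permutation p = 0.0121; rho 0.48, permutation p = 0.0202; limma adjusted p = 0.622 and 0.295). The coefficient was 0.75 in control and 0.19 in thymol-treated mice, and 0.41 without Control 32 and Control 1. The lowest coefficients were -0.34 for Pdhx with Pdp1 (permutation p = 0.106; limma adjusted p = 0.577 and 0.737) and -0.33 for Dlat with Pdk4 (permutation p = 0.116; limma adjusted p = 0.56 and 0.869). Without the 2 farthest mice they were -0.15 and -0.16, and Dlat with Pdk4 had r of -0.61 in control and 0.01 in thymol-treated mice, and of -0.21 over all mice but Control 19. Among the 90 ordered pairs of members, 0 had an adjusted p under 0.05 in limma and 18 an unadjusted one, where 9.21% of all tests with the 10 members had an unadjusted p under 0.05 (8133 of 88280). The ordered pairs count each relation in both directions.

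**Figure D5:**
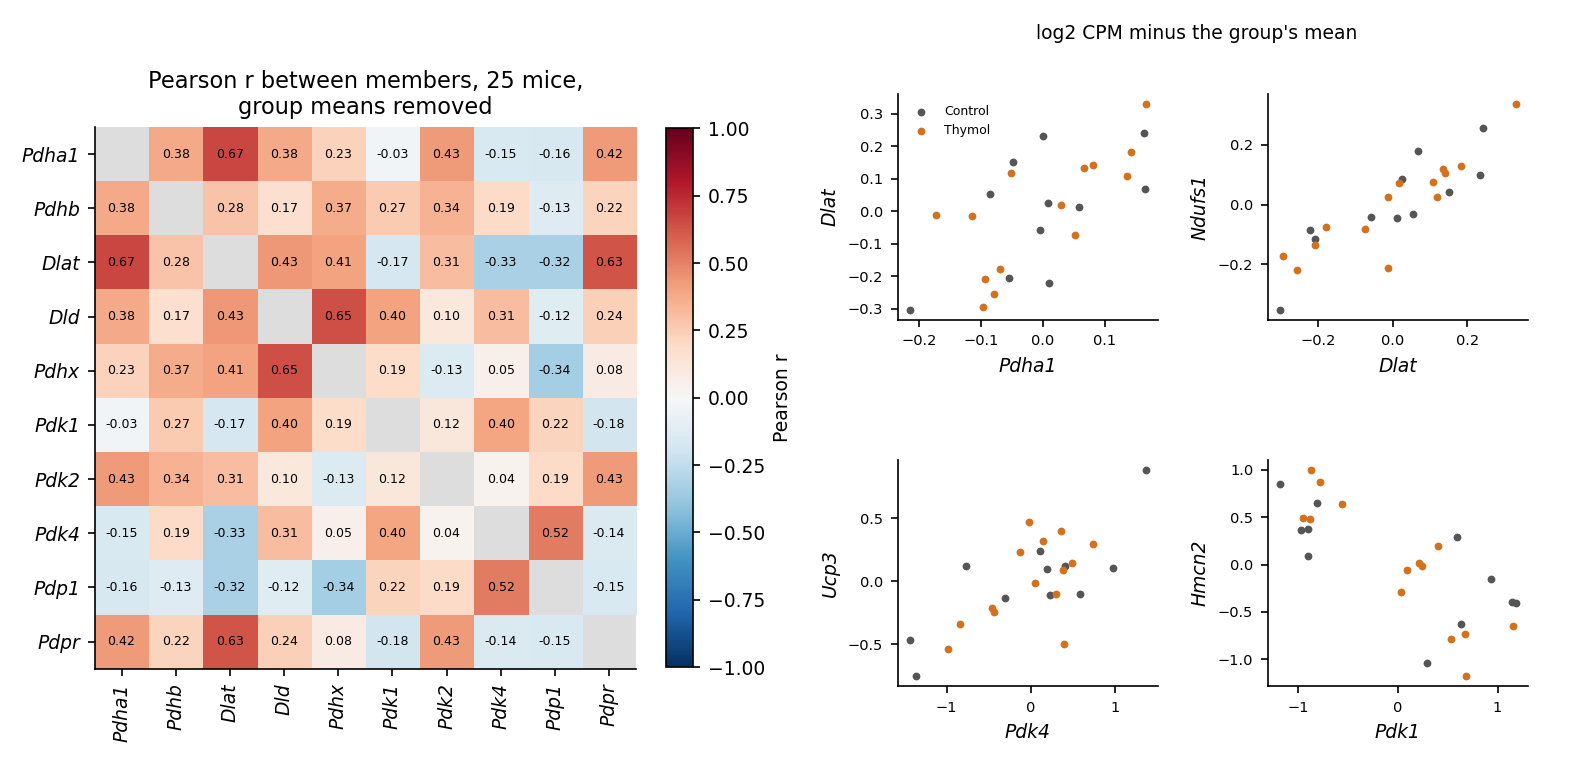
Left, Pearson r between the members over 25 mice with group means removed (color scale from -1 to 1). Right, log2 CPM minus the group's mean of Dlat against Pdha1 (r = 0.67), Ndufs1 against Dlat (r = 0.88), Ucp3 against Pdk4 (r = 0.71) and Hmcn2 against Pdk1 (r = -0.78), 1 point per mouse, control in gray and thymol-treated in orange.

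Against the whole table, the number of genes called with a member as covariate (limma, adjusted p under 0.05) was largest for Dld, at 39 of 8828 (0.442%), followed by Pdha1 with 18 (0.204%), Dlat with 3 (0.034%), Pdp1 with 2 (0.0227%) and Pdk1 and Pdpr with 1 each (0.0113%). It was 0 (0%) for Pdhb, Pdhx, Pdk2 and Pdk4, for which 714, 866, 993 and 559 genes had an unadjusted p under 0.05. Voom on the recovered reads also called 0 for these 4 and called 65 genes for Pdha1. The counts rested on few mice. Dld had 0 calls without Control 19 and 94 without Control 1, Pdha1 had 1 without Control 14 and 65 without Control 18 or Thymol 7, and both had 0 without the 3 libraries that stand apart.

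Genes called with Pdha1 were all positively correlated with it. The closest was Ndufs1, the largest subunit of respiratory complex I, at r = 0.84 (permutation p = 1e-05, the smallest 100000 permutations can give; rho 0.81; limma adjusted p = 0.0132), and 0.76 without Thymol 24 and Control 19. Slc25a3, the mitochondrial phosphate carrier, followed at 0.79 (0.71 without the same mice; limma adjusted p = 0.0132). The other 16, named after their values were seen, included Uqcrc1 and Uqcrc2 of complex III, the transaminases Got1 and Got2 and the fatty acid oxidation enzymes Acadm, Acadvl and Acaa2. Pdha1 also had r of -0.58 with the mean of the 7 adipocyte markers in the table, whose summed level ran from 70.3 to 1488 CPM in control and from 53.3 to 1509 CPM in thymol-treated mice with Lep not in the table, of 0.565 with that of the 6 muscle identity genes and of 0.455 with that of the 8 slow fibre markers. With the means of the slow fibre, adipocyte and leukocyte markers as covariates, r with Ndufs1 was 0.80 and 0 genes were called with Pdha1, and the muscle identity genes were not among these covariates.

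Dlat was closest to the same complex I gene. Ndufs1 ran from 7.30 (Control 19) through 7.62 to 7.91 log2 CPM in control and from 7.44 through 7.68 to 7.99 (Thymol 24) in thymol-treated mice, its extremes falling in the mice with the extremes of Dlat. Pearson r was 0.88 (rho 0.90; permutation p = 1e-05 for each, the smallest possible; limma adjusted p = 0.00248), 0.86 in control and 0.89 in thymol-treated mice, and 0.83 without Thymol 24 and Control 19. This pair kept an adjusted p under 0.05 in every alternative but the block for the label's first number, where it was 0.435 at an r of 0.91. The other 2 genes called with Dlat were Ckmt2, the mitochondrial creatine kinase of muscle, at 0.73 (limma adjusted p = 0.0315) and Egflam, an extracellular matrix protein, at -0.74 (limma adjusted p = 0.0363), and Gfm1, a mitochondrial elongation factor, had r of 0.76 (limma adjusted p = 0.0676). The Ckmt2 and Egflam calls were less stable. They held in 7 and 5 of 11 alternatives and were lost in 9 and 13 of 25 fits without 1 mouse.

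Dld was closest to Ndufb10 of complex I at r = 0.85 (permutation p = 1e-05; rho 0.78; limma adjusted p = 0.00632) and to Sdhb of complex II at 0.81 (limma adjusted p = 0.00632). Both Dld and Ndufb10 had their lowest value in Control 19, and without it r was 0.79 and the limma adjusted p 0.17. Of the 39 genes called with Dld, 14 have the name of a subunit of the respiratory chain or ATP synthase, against 84 such names (0.951%) in the table, a grouping made after the calls were seen. The corresponding number was 4 of 18 for Pdha1 and 1 of 3 for Dlat. These names are of nuclear genes only. The mitochondrially encoded mt-Co1, a subunit gene of complex IV called with Dld at 0.68 (limma adjusted p = 0.0417), is not counted among them.

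Over these 84 genes, the median r was 0.575 with Dld, 0.517 with Pdhx, 0.456 with Pdha1, 0.371 with Dlat and 0.292 with Pdhb. It was 0.234 with Pdk1, 0.168 with Pdk2, 0.08 with Pdpr, 0.077 with Pdk4 and -0.162 with Pdp1, against a median within 0.02 of 0 over all genes for every member. Without the 3 libraries that stand apart, it was 0.492, 0.49, 0.414, 0.277 and 0.392 for the same 5 subunits in that order, and 0.214 for Pdk1, 0.171 for Pdk2, -0.012 for Pdpr, 0.347 for Pdk4 and 0.02 for Pdp1. The number of the 84 genes with a positive r with Pdp1 was 12 with all mice and 46 without these libraries. For Pdk1 the median was 0.456 in control and 0.00 in thymol-treated mice, a difference that was not tested.

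Some of these partners share their locus with another gene. On the opposite strand, Ndufs1 overlaps Eef1b2, Gfm1 overlaps Lxn, Mgme1 overlaps Snx5 and Ucp3 overlaps Gm10603, and whether counting kept such reads apart is not known here.

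The remaining subunits gave 0 calls. Pdhx was closest to the histone gene H2bc4 at r = 0.76 (limma adjusted p = 0.0832) and to Uqcrq of complex III at 0.72, and Pdhb to Rassf3 at 0.68 and to Fh1, the fumarase of the citric acid cycle, at 0.67 (limma adjusted p = 0.435 for each).

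Genes most like Pdk4 were led by Ucp3, the muscle uncoupling protein that responds to fatty acids. Ucp3 ran from 4.92 (Control 1) through 5.77 to 6.56 log2 CPM (Control 19) in control mice and from 5.21 (Thymol 6) through 5.78 to 6.22 in thymol-treated mice, and its highest mouse was also the highest for Pdk4. Pearson r was 0.71 (permutation p = 0.00014; rho 0.54, permutation p = 0.00633), and 0.56 without Control 32 and Control 1. The limma adjusted p was 0.229, and 0.0166 without Thymol 30, the only mouse whose removal brought it under 0.05. The coefficient was 0.63 without Control 19 and 0.36 with a block for the label's first number.

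Other high coefficients with Pdk4 were 0.70 for Tacc2, 0.67 for Fam13a, 0.66 for Slc25a22, a mitochondrial glutamate carrier, 0.64 for Gpc4, 0.62 for Plin4, which coats lipid droplets, and 0.62 for the linker histone gene H1f2. Tacc2 stood at 0.78 without Control 32 and Control 1. The lowest were -0.70 for the splicing factor Rbm5, -0.68 for Atg16l2, -0.67 for Glt8d1 and -0.65 for both Knop1 and Grk2. None of these passed in limma (adjusted p from 0.41 to 0.422).

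Lists of genes around the complex gave no call with Pdk4 either. In the list of lipid-fuel genes of fasting, 16 of 20 were in the table (Angptl4, Cpt1b and Acot1 were among those that were not), and r with Pdk4 was positive in 16 of 16 with a median of 0.32, against -0.003 over all genes. Besides Ucp3, the highest was Acot2, a mitochondrial acyl-CoA thioesterase, at 0.55 (permutation p = 0.0133; rho 0.54; 0.70 in control and 0.20 in thymol-treated mice; limma adjusted p = 0.422). Of 15 glucocorticoid and FoxO response genes, 12 had a positive r with a median of 0.301, led by Fkbp5, a co-chaperone of the glucocorticoid receptor, at 0.51 (limma adjusted p = 0.597) and Trim63, a muscle ubiquitin ligase, at 0.40. The lipid-fuel relation was not particular to Pdk4. With Pdha1 the same 16 lipid-fuel genes had a higher median r, 0.478, and 2 of them were called. The glucocorticoid and FoxO genes had a median of -0.183 with Pdha1.

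The 9 regulators known to act on Pdk4, all in the table, had a median r of -0.062 with it. Their largest coefficients were -0.40 for Nr3c1, the glucocorticoid receptor, and 0.33 for the coactivator Ppargc1b. The 10 hypoxia genes in the table had a median of -0.023, with 0.39 for Bnip3 and -0.36 for P4ha1. Among pyruvate supply and lipoylation genes, of which 8 of 10 were in the table, the median was 0.117, with 0.39 for the phosphatase isoform gene Pdp2 and 0.27 for the pyruvate carrier subunit Mpc1. Among the sister dehydrogenase complexes (8 of 12 in the table), it was 0.025, with 0.17 for Ogdh and -0.15 for Dbt.

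Markers of other cells and fibre types were set beside Pdk4 in the same way. The median r was 0.182 for 7 adipocyte, -0.126 for 7 leukocyte (Ptprc, Cd52 and Tyrobp were not in the table), -0.004 for 6 endothelial, 0.064 for 5 Schwann, 0.135 for 8 slow fibre, -0.044 for 8 fast fibre and -0.012 for 6 muscle identity genes. The largest coefficient in any of these lists was -0.37 for Ryr1. Slow fibre markers summed to 79.8 to 10019 CPM over the mice, and the part of fibre make-up in the members' values was not tested beyond these coefficients.

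Whether the slope on Pdk4 differed between thymol-treated and control mice was tested for every gene. In limma, 0 of 8828 genes had an adjusted p under 0.05 (0%, smallest adjusted p 0.752), 335 genes had an unadjusted p under 0.05 (3.79%), and 0 of the other 9 members did. The coefficients of Pdha1 with Pdk4 were -0.45 in control and 0.23 in thymol-treated mice, and the test of their slopes gave an unadjusted p of 0.199.

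Hmcn2, an extracellular matrix protein of the hemicentin family, was the only gene called with Pdk1, at r = -0.78 (permutation p = 1e-05; rho -0.75; limma adjusted p = 0.0215). Hmcn2 ran from 1.72 (Control 15) through 2.84 to 3.60 log2 CPM (Control 32) in control and from 1.53 (Thymol 20) through 2.71 to 3.70 (Thymol 28) in thymol-treated mice, so that its highest control value fell in the mouse with the lowest Pdk1. The relation was also measured within the mice below and above the widest gap of Pdk1, a division made after its values were seen. Within the 10 mice of the lower Pdk1 set r was 0.051, and within the 15 mice of the upper set it was -0.249. The narrower range of Pdk1 within a set lowers a coefficient by itself, so these values are a description. Without the 3 libraries r was -0.81 (limma adjusted p = 0.0195). With a block for the label's first number it was -0.54 (limma adjusted p = 0.782). In 6 of 25 fits without 1 mouse the limma adjusted p was no longer under 0.05.

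Entpd2, an ectonucleotidase, and Tmem38a, a cation channel of the sarcoplasmic reticulum, each had r of 0.72 with Pdk1 over all mice (limma adjusted p = 0.0695 and 0.126). Within the lower and upper sets the coefficients were -0.024 and 0.132 for Entpd2 and -0.284 and 0.062 for Tmem38a. Pdk4 and Pdk1 had r of 0.372 and 0.407 within these sets. Entpd2 overlaps Npdc1 on the same strand, so their reads may not be told apart.

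Pdk2 was closest to Hdac5, a class IIa histone deacetylase, at r = 0.73 (limma adjusted p = 0.16). Pdp1 was called with Zc3h6 at 0.74 (limma adjusted p = 0.0312) and with Ddit4l, an inhibitor of mTOR signaling, at -0.76 (limma adjusted p = 0.0203), and Uri1 had r of 0.70. Pdpr was called with Ak4, an adenylate kinase of the mitochondrial matrix, at 0.76 (limma adjusted p = 0.0388), and Mgme1, a nuclease of mitochondrial DNA maintenance, had r of 0.76 (limma adjusted p = 0.0656). The Pdp1 and Pdpr calls were not stable, since both Pdp1 calls were lost without the trend, with sample weights or with library number as a covariate, and 0 genes were called with Pdpr without any one of 18 mice.

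For thymol against control, the 13 lists gave 0 genes at an adjusted p under 0.05 in limma. Pyruvate supply and lipoylation genes had a median log2 fold change of 0.04 (6 above 0, 2 below), with 0.24 ± 0.12 (SE) for the lipoyltransferase Lipt1 and 0.08 ± 0.15 for pyruvate carboxylase Pcx. The sister complexes had a median of 0.06 (7 above, 1 below), with 0.12 for Gcsh and 0.12 for Dbt, and the lipid-fuel genes one of 0.06 (15 above, 1 below), with 0.13 for Acadvl and 0.24 for Cpt1a. The regulators of Pdk4 had a median of -0.05 (2 above, 7 below), with -0.23 ± 0.10 (SE; unadjusted p = 0.0214) for Ppard and 0.21 for Ppargc1b. Glucocorticoid and FoxO genes had a median of -0.12 (2 above, 13 below), with -0.32 for Irs2 and -0.19 for Sgk1, and hypoxia genes one of -0.05 (3 above, 7 below), with -0.46 for Ddit4 and -0.15 for Adm.

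Of the marker lists, slow fibre genes had a median log2 fold change of -0.26 (0 above, 8 below), with -0.40 ± 0.62 (SE) for Myh7 and -0.31 ± 0.56 for Tnni1. Fast fibre genes had one of -0.00178 (4 above, 4 below; Tnnc2 0.05, Actn3 -0.05) and muscle identity genes one of 0.00228 (3 above, 3 below; Pygm -0.05, Ryr1 -0.04). Adipocyte genes had a median of 0.00341 (4 above, 3 below; Pck1 0.26, Cfd 0.11), leukocyte genes one of -0.05 (2 above, 5 below; Laptm5 -0.28, Lyz2 0.15) and endothelial genes one of -0.09 (0 above, 6 below; Tie1 -0.27 with an unadjusted p of 0.0194, Cldn5 -0.18). Schwann genes had a median of -0.31 (0 above, 5 below), with 1 of 5 at an unadjusted p under 0.05. With the means of the marker lists, the other members had their largest absolute r as follows. With muscle identity it was 0.411 for Dld, 0.374 for Pdhb, 0.308 for Pdhx and -0.361 for Pdp1. It was -0.432 for Dlat with adipocyte, -0.471 for Pdk2 with leukocyte, and -0.375 for Pdpr and -0.196 for Pdk1 with Schwann genes. The part of these cell types in the members' values was not tested beyond the coefficients given here.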

How the data were processed

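Gastrocnemius RNA of 25 mice (11 control, 14 thymol) was profiled with QuantSeq 3′ libraries. According to the study's methods and the submitters' processing notes, the authors mapped reads with STAR 2.5.3 to GRCm38, counted them with HTSeq 0.6.1, kept genes with 30 reads in at least 6 samples and applied TMM scaling. The deposited values are log2 CPM, and whole reads were recovered from 100.0% of them (tolerance 0.01 reads). Reads carry no molecular identifiers, so intervals of counting cover counting error only.

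Thymol was compared with control in limma 3.58.1 (R 4.3.3; linear model, empirical Bayes with trend, two-sided, Benjamini-Hochberg over all genes, threshold 0.05), a test for values on the log2 scale, with voom on the recovered reads as an alternative. For co-variation, each member was added in turn as a covariate to the group term and every other gene was tested. Pearson r and Spearman rho were computed after removal of group means, with 100000 permutations within groups (numpy 2.4.6). Coefficients in full were computed for 6 member pairs, 35 relations of named genes and 26 of list genes, with adjusted p taken from limma over all genes. Positions are from GENCODE M21 and promoter sequences from RefSeq. Procedures were tested on simulated data in which genes varied independently apart from the planted effects. This cannot show how reliable calls are that rest on few mice.

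All members are named. Of each list, the 2 genes with the smallest p and the 2 with the largest absolute r with Pdk4 are named, with the 8 highest and 5 lowest genes for Pdk4, the 2 highest for each other member, and the 4 highest and 2 lowest member pairs. Some genes that this rule names are not reported here. Members and lists were chosen with earlier results of these data known. Mice were grouped by their labels and are named by the last number of the label. Mice of different groups that shared the label's first number had a mean correlation of deviations of -0.002 (9 pairs, from -0.179 to 0.104). These pairs are too few to exclude an effect of that number, and pairs within a group were left out. The alternatives are given with their effect in the closing section.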

Additional observations from a re-analysis of the deposited data

How the results depend on the processing

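With a block for the label's first number, which leaves few mice for the comparison, log2 fold changes turned sign for Dld (0.00439), Pdk1 (-0.31) and Pdk4 (-0.00772), genes called were 5 with Dld, 0 with Pdp1 and Pdpr and 1 with Pdk4 and Pdhb, and the member with an unadjusted p under 0.05 was Dlat (0.0249) in place of Pdpr (0.0996). Leaving out 1 mouse gave log2 fold changes from -0.0446 to 0.0103 for Dld (7 of 25 above 0) and from -0.121 to 0.161 for Pdk4 (9 of 25 below 0). The 0 calls for thymol held in all 10 alternatives and 25 such fits, with 234 to 346 and 287 to 348 genes at an unadjusted p under 0.05. For members that number was 2 with library number as covariate, 0 without Control 18, Thymol 20 and Control 19, and 0 to 3 without 1 mouse.

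Genes called with a member depended on the settings. With Pdha1 they were 1 (quantile normalization), 102 (median centring), 65 (voom; 75% of genes with the highest mean), 0 (no trend; marker means; 3 libraries left out), 9 (sample weights) and 56 (no group term). With Dld they were 23 (quantile), 61 (median centring), 3 (no trend), 16 (weights) and 0 (3 libraries left out). With Dlat they were 10 (quantile), 1 (no trend; library number) and 15 (marker means). With Pdp1 they were 5 (75% of genes), 0 (no trend; weights; library number), 11 (marker means), 4 (no group term) and 1 (3 libraries left out). With Pdk1 they were 0 (75% of genes), 5 (marker means) and 4 (no group term), with Pdpr 6 (median centring) and 0 (75% of genes; marker means; no group term), with Pdhx 10 (marker means) and with Pdhb 2 (3 libraries left out). Hmcn2 and Ak4, the genes called with Pdk1 and Pdpr, were not among the 75% of genes with the highest mean. That setting therefore did not test these calls. Pdha1 and Dlat were called as 1 ordered pair under median centring, 75% of genes and no group term. Without 1 mouse, calls ran from 1 to 65 (Pdha1), 1 to 5 (Dlat), 0 to 94 (Dld), 0 to 20 (Pdhx, highest without Thymol 20), 0 to 4 (Pdk1, Pdpr), 0 to 6 (Pdk2, Pdp1) and 0 to 1 (Pdk4, member pairs). The cause was not tested. Leaving out the 3 libraries, and every alternative for the genes called with members other than Pdk4, were chosen after seeing the data.

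Counting error was below the spread between mice for every member, and noise from library preparation was not measured.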

Other observations

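Genes of chromosome 2 were frequent among those closest to Pdk1, which lies on that chromosome. Of the 20 genes with the largest absolute r with Pdk1, 4 (20.0%) were on chromosome 2, which holds 682 of the 8612 table genes with a position (7.92%), and the corresponding count was 0 to 2 of 20 for the other members. Of these, Entpd2, Mrpl41 and Uap1l1 had a positive r and start between 24974117 and 25395874 (GRCm38), and Hmcn2, with a negative r, starts at 31314415. The nearest table gene to Pdk1, the integrin gene Itga6, 14808 bases away, had r of -0.61 with it, Mettl8 had -0.57 and Hat1 0.44, and the other 5 neighbours listed lay between -0.19 and 0.17. Neighbours of Pdk4 had r with it of 0.47 (Asb4, 50329 bases away), 0.31 (Casd1), 0.25 (Pon2), 0.10 (Pon3), -0.25 (Col1a2) and -0.30 (Sgce). These genes were chosen after their values were seen and no test of their positions was made.

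The 7 mitochondrially encoded genes of the table had a median r of 0.542 with Dld, 0.489 with Pdhx and 0.376 with Pdha1, against -0.049 with Pdk4 and -0.156 with Pdp1. They are a grouping made after the data were seen, and are given as a description.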
